A study of Mus musculus with 4 samples.

Results

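The genes described here carry out or control the synthesis of sterols and fatty acids in mouse CD4 T cells. They were taken by gene symbol from a list of 37 genes, and 34 of these had at least 1 probe, 47 probes in all, among 16593 genes named on the array. Mvk, Fdft1 and Acat2 were not analysed here, since no probe was matched to them. RNA was read on Illumina bead arrays, on which the brightness of a probe is averaged over many beads with the same oligonucleotide, and each of 4 groups had 1 array. All cells came from male Foxp3-GFP mice, strain B6.Cg-Foxp3tm2Tch/J, in which green fluorescent protein (GFP) reports expression of Foxp3, the transcription factor that defines regulatory T cells. Vitamin C iTreg were induced regulatory T cells grown with vitamin C at 10 µg/ml, and conventional iTreg were grown without it. Both started from sorted naive cells (CD4+, GFP-, CD44 low) that received antibodies to CD3 and CD28 at 1 µg/ml each, TGF-beta at 10 ng/ml with IL-2 at 15 ng/ml, and GFP+ CD25+ cells were sorted again after 5 to 6 days. The series text gives 5 days. Natural Treg (CD4+, CD8-, GFP+) and naive CD4 cells (CD4+, CD8-, GFP-, CD44 low) were sorted from lymph node and spleen and were not cultured. The labels do not say how many mice were pooled for an array, and no array analysed here held T cells stimulated without TGF-beta.

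With 1 array per group no gene could be tested, and every difference below describes a pair of arrays. Each difference is on the normalized log2 scale, taken as the group named first less the group named after it, so that 1 is 2-fold. How precise a value is was limited by there being 1 array behind it. A probe counted as detected on an array when its detection p-value was under 0.01. Between 7027 and 7603 genes were detected per array, with the lowest number on the naive CD4 array. All 10 T cell markers with a probe were detected on each array. Of 8 Treg markers, 7 were detected on each iTreg array, all except Ikzf2, and 8 in natural Treg. In naive CD4, 5 were detected (Ctla4, Ikzf4, Tnfrsf18, Nrp1 and Itgae), but not Foxp3, Ikzf2 or Il2ra, which encodes CD25. Of 6 naive cell markers, 5 were detected on each array. Their intensities summed to 14854 and 20104 in vitamin C and conventional iTreg, against 44487 in natural Treg and 77182 in naive CD4. Of 7 adipocyte and liver markers with a probe, 0 were detected on any array. Of B cell and myeloid markers, 2 of 11 and 3 of 12 were detected on each iTreg array. The natural Treg and naive CD4 arrays each detected 4 of 11 and 3 of 12. B cell marker intensities summed to 5728 and 6090 in vitamin C and conventional iTreg, against 3677 in natural Treg and 2321 in naive CD4. Myeloid marker intensities summed to 9052 and 7084 in these iTreg, against 5059 and 4113 in natural Treg and naive CD4. For conventional iTreg over naive CD4, 4 B cell markers compared ran from -1.95 to 2.81 and 4 myeloid markers from -1.61 to 1.20. Of 9 CD8 and NK cell markers, 4 were detected on each iTreg array and 3 on each ex vivo array, with summed deposited intensities of 8012 in vitamin C iTreg, 13094 in conventional iTreg, 11099 in natural Treg and 17194 in naive CD4. In conventional iTreg over naive CD4 the 4 compared ran from -2.52 to 6.28. The erythroid gene Hba-a1 was detected on the ex vivo arrays alone, with a bound of -2.93 in conventional iTreg over naive CD4. The part of these markers in the differences below was not tested. Different probes of a gene gave the only internal check, since they share the RNA and the array. For vitamin C iTreg minus conventional iTreg they disagreed by a median of 0.12, with a 90th percentile of 0.32. For conventional iTreg minus naive CD4 those values were 0.20 and 0.70.

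As background, cells make cholesterol from acetyl-CoA through mevalonate, isoprenoid units, squalene and a series of sterol intermediates, and they make fatty acids from the same acetyl-CoA. Both routes are driven by the SREBP transcription factors, which are made as membrane proteins, escorted by SCAP to the Golgi for cleavage when sterols are scarce, and held back by INSIG proteins when sterols are plentiful. Oxysterols act through the LXR receptors, which induce the cholesterol exporters and Srebf1. Stimulated T cells are known to switch on SREBP target genes as they grow and divide.

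The genes were compared first between the iTreg arrays and the naive CD4 array, the cell type the iTreg were grown from. Most enzymes of sterol synthesis and fatty acid desaturation had higher signals in both iTreg cultures, by about the same amount with and without vitamin C. In conventional iTreg over naive CD4, 22 members of 32 compared were higher by 2-fold or more and 1, Acss2, was lower by as much, against 13.2% higher and 14.7% lower of the 7963 genes compared. The median difference was 1.82, and that of all compared genes was -0.08. In vitamin C iTreg over naive CD4, 22 of 31 were higher by 2-fold or more, against 13.8% of 7945 genes, with a median of 1.90, and Acss2 was at -2.42. Both comparisons use the same naive CD4 array. A gene entered a comparison when at least 1 of both arrays detected it, and a gene detected on 1 of them has a bound, which can be 0. Counted over the 27 members detected on all 4 arrays, 22 had both iTreg signals above both ex vivo signals, which 32.0% of the 6547 genes detected on all arrays also had, and 3 had both iTreg signals below, against 45.6%. In bulk RNA a lower share of expressing cells and less RNA per cell cannot be told apart. Culture, stimulation and Treg induction also cannot be told apart here.

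**Figure D1:**
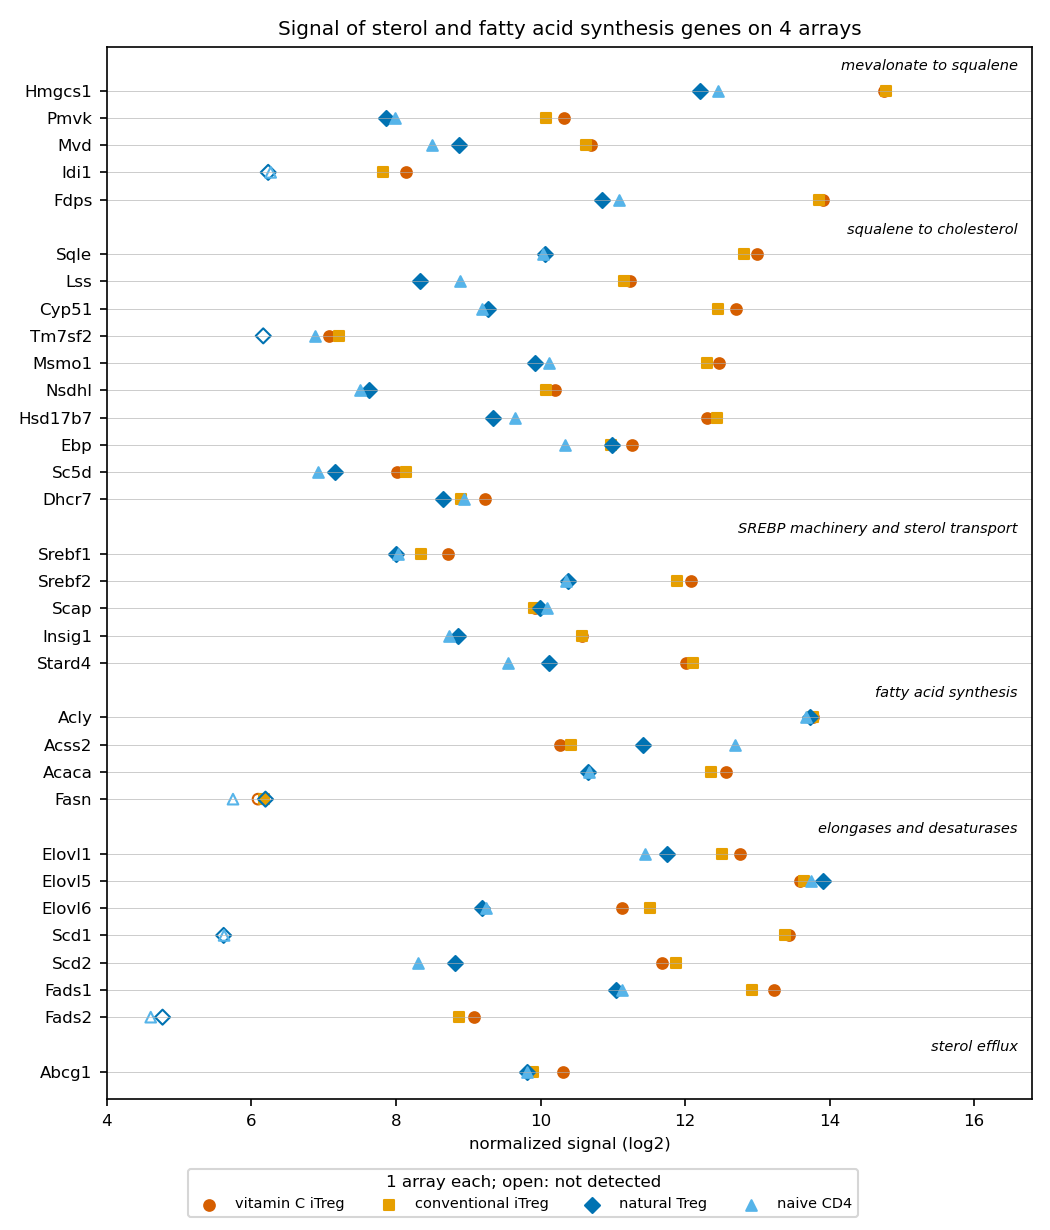
Normalized log2 signal (horizontal axis) of each member detected on at least 1 array, by role, with 1 point per array; open symbols were not detected. For most sterol synthesis genes the vitamin C and conventional iTreg points lie together at the right of the natural Treg and naive CD4 points, while Acly, Scap and Elovl5 show all 4 points close together and Acss2 shows the iTreg points at the left.

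The enzymes that lead from acetyl-CoA to farnesyl diphosphate were all higher in iTreg. Hmgcs1, which makes HMG-CoA (probe ILMN_2654952), had log2 signals of 14.75 in vitamin C iTreg and 14.78 in conventional iTreg, against 12.21 in natural Treg and 12.45 in naive CD4. Fdps, the farnesyl diphosphate synthase (ILMN_1225730), had 13.91 and 13.86 in vitamin C and conventional iTreg, against 10.85 in natural Treg and 11.09 in naive CD4. The iTreg signals were thus 5.02-fold and 6.80-fold above naive CD4 for conventional iTreg, and the arrays of each pair lay within 0.25 of each other. Pmvk, the phosphomevalonate kinase, stood at 10.32 and 10.07 in vitamin C and conventional iTreg, against 7.87 in natural Treg and 7.99 in naive CD4. Mvd, which decarboxylates mevalonate diphosphate to the first isoprenoid, stood at 10.69 and 10.63 in these iTreg, against 8.87 and 8.50 in natural Treg and naive CD4. Idi1, the isomerase of that isoprenoid, was detected in iTreg alone, at 8.15 with and 7.82 without vitamin C. With naive CD4 set at the lowest signal detected on its array, as was done for each bound, it was at least 2.26-fold higher in conventional iTreg than in naive CD4, a bound of 1.18 log2 that was 0.71 in the authors' deposited values and 0.96 with an offset of 50 in place of 16 added to the signals.

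From squalene to cholesterol, 7 of 10 enzymes compared were at least 2-fold higher in conventional iTreg than in naive CD4. The share of all compared genes was 13.2%, and Cyp51 was the highest of these enzymes. Cyp51, the lanosterol demethylase (ILMN_2688075), had 12.70 in vitamin C iTreg and 12.46 in conventional iTreg, against 9.28 in natural Treg and 9.19 in naive CD4. Sqle, the squalene epoxidase (ILMN_2737163), had 12.99 and 12.81 in iTreg with and without vitamin C, against 10.07 and 10.03 in natural Treg and naive CD4. Hsd17b7, a keto-reductase of sterol demethylation (ILMN_1229529), had 12.30, 12.45, 9.35 and 9.64 on the vitamin C, conventional, natural Treg and naive CD4 arrays. For these 3 genes conventional iTreg exceeded naive CD4 by 9.67-fold, 6.88-fold and 6.98-fold, and no iTreg value came near an ex vivo value. Lss, which closes the sterol rings, had 11.24 and 11.16 in vitamin C and conventional iTreg, against 8.33 in natural Treg and 8.88 in naive CD4. Msmo1, the sterol C4 methyl oxidase, had 12.48 and 12.30 in vitamin C and conventional iTreg, against 9.93 and 10.11 in natural Treg and naive CD4. Nsdhl, which removes the oxidized carbon, had 10.20 and 10.07 in vitamin C and conventional iTreg, against 7.63 in natural Treg, which lay 0.13 above naive CD4. These 3 genes were higher in conventional iTreg than in naive CD4 by 2.28, 2.19 and 2.57 log2, again with both iTreg values above both ex vivo values. Sc5d, the sterol desaturase of a late step, had 8.02 and 8.15 in vitamin C and conventional iTreg, against 7.16 in natural Treg and 6.92 in naive CD4. It was higher in conventional iTreg than in naive CD4 by 1.23 log2, and by 0.80 in the authors' deposited values.

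The other 3 enzymes of this stretch were less than 2-fold apart. Dhcr7, which reduces 7-dehydrocholesterol to cholesterol, had 9.23 in vitamin C iTreg and 8.90 in conventional iTreg. It had 8.65 in natural Treg and 8.94 in naive CD4, and the naive CD4 value lay between the iTreg values. Ebp, the sterol isomerase, had 11.27 and 10.97 in vitamin C and conventional iTreg, against 10.98 in natural Treg and 10.34 in naive CD4. Its natural Treg signal lay with the iTreg and only naive CD4 stood lower. Tm7sf2, a sterol reductase that has a known alternative in another gene, had 7.07, 7.22 and 6.89 in vitamin C iTreg, conventional iTreg and naive CD4 and was not detected in natural Treg, where its detection p-value was 0.0188.

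The promoters of members that differed alike are shown because the RefSeq table for GRCm38.p6 gives them and SREBPs are known to act together with the CCAAT-binding factor NF-Y. The table held a promoter for 27 of the 34 members, as windows that run from 250 bases before to 50 after the annotated start, and 5 motifs were searched on both strands. CCAAT was present in 22 of these 27 members (81.5%), against 43.8% of the 6816 genes that were detected on at least 1 array and had a promoter. The members were not limited to detected genes, here or for the other motifs, and the 27 include Me1 and Abca1, detected on no array. CCAAT was in 13 of 16 members that were at least 2-fold higher in conventional iTreg than in naive CD4, and in 9 of the 11 others. These others include Me1 and Abca1, which were not compared, and Fasn, which had only a bound. Whether CCAAT goes with the difference was not tested. The GC box GGGCGG was found in 81.5% of members and 69.8% of detected genes, and the E-box CACGTG in 25.9% and 12.1%. The sterol regulatory element, searched as TCACNCCAC, was in 1 member, Hmgcs1, and in 1.26% of detected genes, and the LXR repeat searched by its name, DR4, was in 0 members. The LXR repeat was in 0.0148% of the 27025 genes with a promoter and in 0.00% of detected genes. It was too rare for a count of 0 to set members apart from other genes. Whether LXR acts on the members was not tested. A match describes letters in a window and is not a binding site. The 250 bases before the start are printed 5′ to 3′ on the strand of the gene, with CCAAT, TCACNCCAC and CACGTG on either strand in capitals, for 3 members higher in iTreg and for Acss2, which was lower. The windows are chr13:119690101-119690350 on the plus strand for Hmgcs1, chr8:64733579-64733828 on the minus strand for Msmo1, chr1:169969206-169969455 on the minus strand for Hsd17b7 and chr2:155517793-155518042 on the plus strand for Acss2.
Hmgcs1: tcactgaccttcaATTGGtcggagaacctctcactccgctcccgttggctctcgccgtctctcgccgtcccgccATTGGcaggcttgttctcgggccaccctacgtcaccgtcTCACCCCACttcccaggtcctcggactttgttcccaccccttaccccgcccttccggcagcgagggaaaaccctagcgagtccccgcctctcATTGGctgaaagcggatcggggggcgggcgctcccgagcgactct
Msmo1: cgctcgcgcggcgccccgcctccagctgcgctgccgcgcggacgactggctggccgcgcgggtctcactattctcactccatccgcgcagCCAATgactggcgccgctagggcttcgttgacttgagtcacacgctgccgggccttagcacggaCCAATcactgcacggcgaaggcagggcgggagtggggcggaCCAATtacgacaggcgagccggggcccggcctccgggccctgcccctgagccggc
Hsd17b7: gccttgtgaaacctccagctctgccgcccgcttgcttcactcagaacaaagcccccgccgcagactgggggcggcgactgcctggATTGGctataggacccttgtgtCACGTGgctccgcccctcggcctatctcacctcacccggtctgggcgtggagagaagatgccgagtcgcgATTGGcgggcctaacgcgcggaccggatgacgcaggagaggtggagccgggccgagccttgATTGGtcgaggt
Acss2: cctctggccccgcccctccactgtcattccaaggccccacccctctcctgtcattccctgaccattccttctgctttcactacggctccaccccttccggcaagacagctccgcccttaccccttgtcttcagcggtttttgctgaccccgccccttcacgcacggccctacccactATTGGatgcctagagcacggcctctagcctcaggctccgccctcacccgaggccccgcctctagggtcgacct
In the Hmgcs1 window the sterol regulatory element begins 137 bases before the start, between inverted CCAAT boxes that begin 176 and 45 bases before it. Msmo1 holds 3 CCAAT boxes, at 160, 96 and 55 bases. Hsd17b7 holds 3 inverted ones, at 165, 73 and 12 bases, and the E-box at 143 bases. Acss2, the member that was lower in iTreg, holds an inverted CCAAT box at 73 bases. The printed windows are examples, and whether the number of boxes goes with direction over the members was not tested. Cyp51, which was higher in iTreg, holds a CCAAT box at 29 bases alone. Fasn, detected on the conventional iTreg array alone, had a bound of 0 and so no measured direction. It holds CCAAT boxes on either strand at 90, 62 and 59 bases.

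Among the regulators, the SREBP-2 gene was more than 2-fold higher in both iTreg than in either ex vivo group and the SREBP-1 gene was less than 2-fold higher. Srebf2, which encodes the SREBP that chiefly drives cholesterol genes (ILMN_1223598), had 12.08 in vitamin C iTreg and 11.89 in conventional iTreg, against 10.38 in natural Treg and 10.35 in naive CD4. Srebf1, whose products include the SREBP that chiefly drives fatty acid genes (ILMN_2792089), had deposited intensities of 599.3 in vitamin C iTreg and 467.6 in conventional iTreg, against 315.5 in natural Treg and 308.3 in naive CD4, and on the normalized scale conventional iTreg was 1.27-fold above natural Treg and 1.25-fold above naive CD4, and vitamin C iTreg 1.65-fold and 1.62-fold. A second Srebf1 probe was detected on 0 arrays, and the probe table names no Srebf1 isoform. Scap, the escort protein, differed by -0.18 in conventional iTreg over naive CD4 and was close to level on all arrays, from 9.91 to 10.09. Insig1, which holds the SCAP complex back and is itself an SREBP target, had 10.57 in vitamin C iTreg and 10.57 in conventional iTreg, against 8.86 in natural Treg and 8.74 in naive CD4. Its 3 detected probes were higher in conventional iTreg than in naive CD4 by 1.83, 2.51 and 2.86 log2, and the brightest of them, used for the gene, gave the smallest value. Stard4, a carrier of cholesterol between membranes, had 12.02 and 12.11 in vitamin C and conventional iTreg, against 10.12 in natural Treg and 9.55 in naive CD4.

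Enzymes that supply and build fatty acids differed in direction. Acly, which makes cytosolic acetyl-CoA from citrate, had 13.77 and 13.77 in vitamin C and conventional iTreg, against 13.73 in natural Treg and 13.68 in naive CD4, a level set of values. Acaca, the acetyl-CoA carboxylase of fatty acid synthesis, had 12.57 and 12.35 in vitamin C and conventional iTreg, against 10.65 and 10.67 in natural Treg and naive CD4. Acss2, which makes acetyl-CoA from acetate (ILMN_2734181), ran the other way, with 10.27 and 10.42 in vitamin C and conventional iTreg, against 11.42 in natural Treg and 12.69 in naive CD4. It was 4.82-fold lower in conventional iTreg than in naive CD4, and its second probe, detected in naive CD4 alone, had a bound of -1.02. The Fasn probe, for fatty acid synthase, was dim on every array, with deposited intensities of 184.6 and 176.2 in vitamin C and conventional iTreg, 160.0 in natural Treg and 139.8 in naive CD4. Only the conventional iTreg array passed the detection limit for it, and its bound was 0 in each comparison that included it. Me1, the malic enzyme that supplies NADPH, was detected on 0 arrays by either of its probes.

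Among desaturases, Scd2 had the widest gap of the members measured on both arrays in conventional iTreg over naive CD4, and Scd1 and Fads2 have bounds there. Scd1, the stearoyl-CoA desaturase that makes oleate (ILMN_1237375), had deposited intensities of 12860 in vitamin C iTreg and 11379 in conventional iTreg, against 137.6 in natural Treg and 135.3 in naive CD4, and was detected on neither ex vivo array. On the background-corrected normalized scale conventional iTreg was at least 107-fold above naive CD4 and at least 135-fold above natural Treg. These bounds hold for that scale only, since in the authors' deposited log2 values, with no background correction, they were lower, at 5.77 and 5.93 log2, against 6.74 and 7.07. Scd2, a paralog with the same activity, had log2 signals of 11.68 and 11.87 in vitamin C and conventional iTreg, against 8.82 in natural Treg and 8.30 in naive CD4. Scd1 and Scd2 lie close together on chromosome 19, with 1 protein-coding gene between them in the RefSeq table. Fads1, which introduces a double bond into polyunsaturated fatty acids, had 13.23, 12.93, 11.04 and 11.13 on the vitamin C, conventional, natural Treg and naive CD4 arrays. Fads2, its neighbour on chromosome 19 with 0 protein-coding genes between them and another desaturase of that pathway, was detected in iTreg alone, at 9.08 with and 8.87 without vitamin C, and was at least 4.66-fold higher in conventional iTreg than in naive CD4 on the normalized scale. That is a bound of 2.22 log2, which was 1.51 in the authors' deposited values.

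The 3 elongases differed from each other. Elovl6, which lengthens saturated fatty acids, had 11.13 in vitamin C iTreg and 11.52 in conventional iTreg, against 9.19 and 9.24 in natural Treg and naive CD4. Elovl1, an elongase of very long chains, had 12.75 and 12.52 in vitamin C and conventional iTreg, against 11.76 in natural Treg and 11.44 in naive CD4. Its 4 probes were higher in conventional iTreg than in naive CD4 by 1.08, 0.82, 1.05 and 0.34, and with the probes averaged it was no longer 2-fold higher, at 0.82. Elovl5, which lengthens polyunsaturated fatty acids, had 13.59 and 13.65 in vitamin C and conventional iTreg, against 13.91 in natural Treg and 13.74 in naive CD4, and both iTreg values lay slightly below both ex vivo values. Of the LXR-induced exporters, Abcg1 had 10.31 in vitamin C iTreg, 9.89 in conventional iTreg, 9.82 in natural Treg and 9.81 in naive CD4, and Abca1 was detected on 0 arrays.

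**Figure D2:**
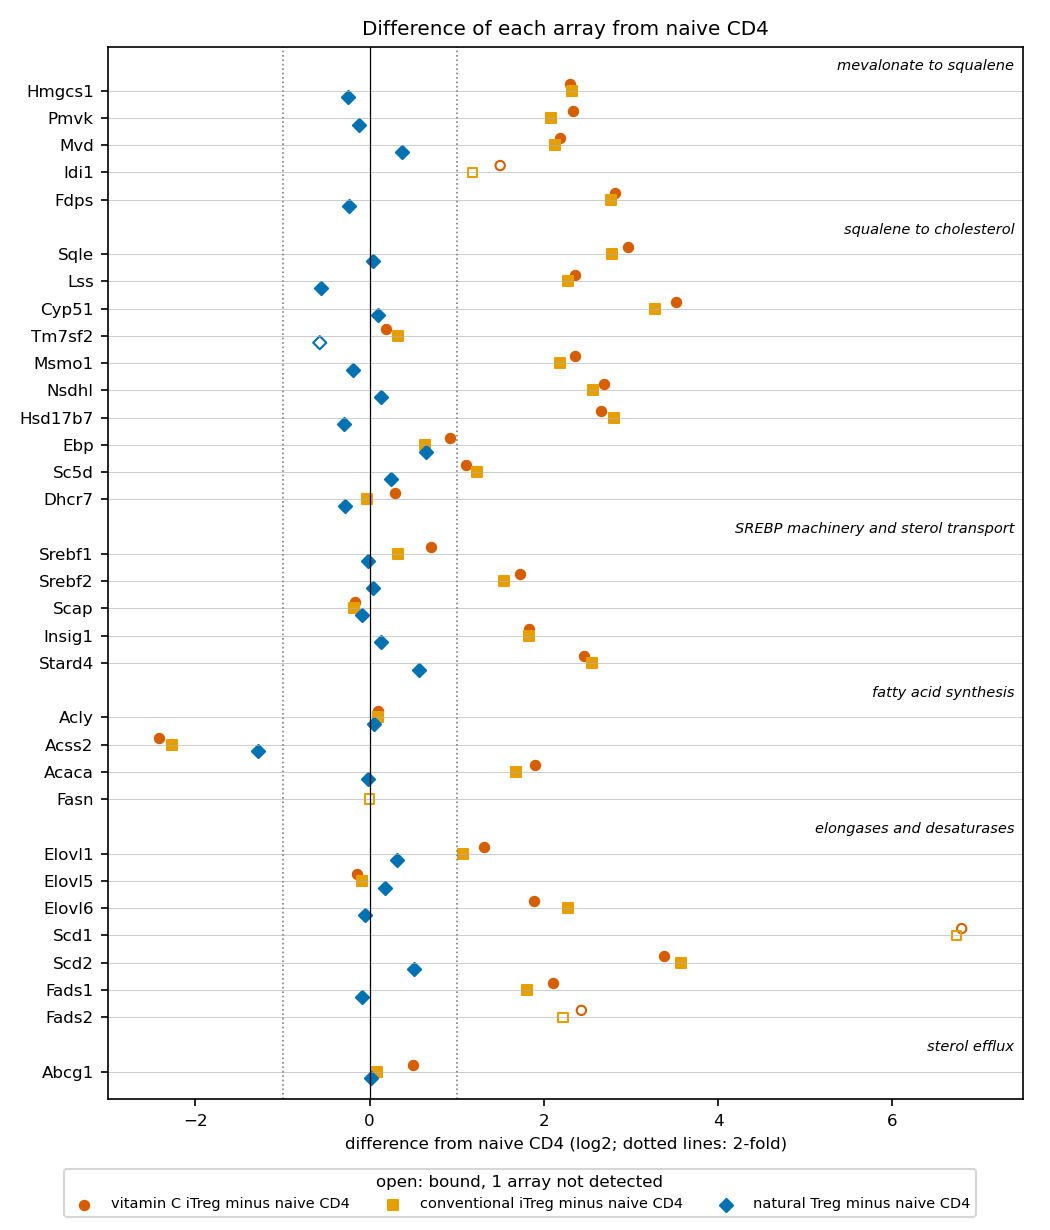
Difference of vitamin C iTreg, conventional iTreg and natural Treg from the shared naive CD4 array (horizontal axis, log2) for each member; open symbols are bounds where 1 array did not detect the gene, and dotted lines mark 2-fold. Both iTreg arrays lie right of the 2-fold line for most sterol genes and the natural Treg points lie near 0, while Acss2 is left of 0 for all 3.

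Agreement between probes was checked for the genes with more than 1 probe detected. The second Sqle probe had 10.95 and 10.89 in vitamin C and conventional iTreg, against 7.49 in natural Treg and 7.74 in naive CD4. By either Sqle probe, both iTreg signals lay above both ex vivo signals. All 4 Nsdhl probes were higher by at least 1.75 over naive CD4, 1 of them as a bound. No detected probe of Sqle, Nsdhl, Insig1 or Elovl1 was lower in conventional iTreg than in natural Treg or naive CD4.

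**Figure D3:**
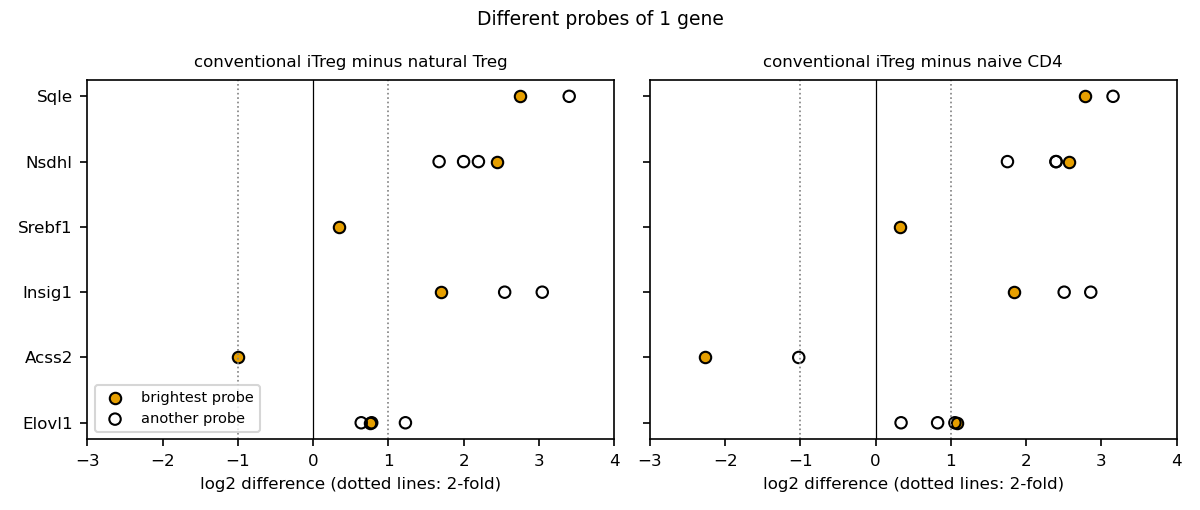
Difference of conventional iTreg from natural Treg (left) and from naive CD4 (right) for each compared probe of the members with several probes (horizontal axis, log2); filled points are the brightest probe and dotted lines mark 2-fold. Sqle, Nsdhl, Insig1 and Elovl1 probes lie at the right of 0 and Acss2 probes at the left, and within Insig1 the brightest probe has the smallest difference.

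The second comparison set both iTreg against natural Treg, that is, induced against ex vivo regulatory T cells. In conventional iTreg over natural Treg, 20 of 32 members compared were higher by 2-fold or more and 0 were lower by as much, against 11.1% and 12.0% of 8031 genes (13.3% and 9.51% with median centring), and the median was 1.73 against -0.06 for all genes. In vitamin C iTreg over natural Treg, which shares the natural Treg array, 20 of 31 were higher and 1 lower, against 11.7% and 13.0% of 8034 genes (14.2% and 10.3% with median centring), with a median of 1.90. Hsd17b7 (3.10), Cyp51 (3.18), Scd2 (3.06) and Fdps (3.01) were the highest in conventional iTreg over natural Treg among members measured on both arrays. Acss2 was the lowest, at -0.99 in conventional iTreg and -1.14 in vitamin C iTreg, where it was the only member 2-fold lower. Averaged over both probes it was at -0.40 and -0.64, which did not reach 2-fold. Sc5d stood at 0.99 and 0.86, and Elovl1 at 0.76 and 1.00, for conventional and vitamin C iTreg, all of them short of 2-fold before rounding. Cell cycle genes also differed between these arrays: 15 of 19 compared were at least 2-fold higher in conventional iTreg than in natural Treg (median 1.72), and 16 of 19 in conventional iTreg than in naive CD4 (median 2.92). Over naive CD4, Birc5 was at 4.94 and Cdk1 had a bound of 4.71, while Pcna was at 0.20 and Ccnd2 at 0.13. Their part in the sterol and fatty acid differences was not tested.

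**Figure D4:**
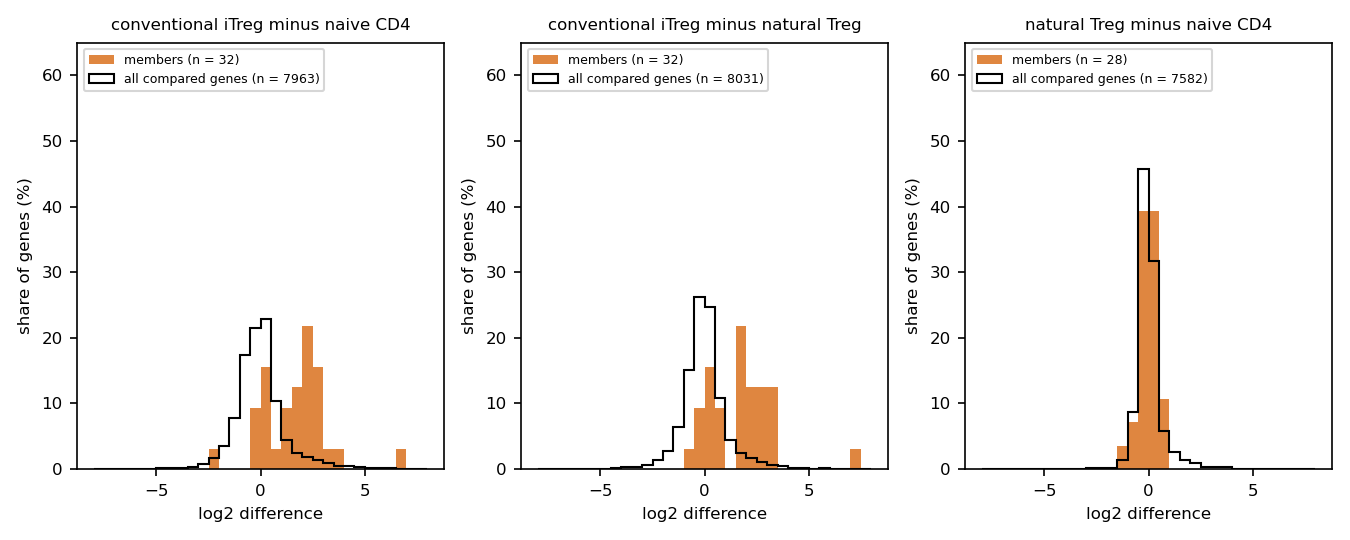
Share of genes (vertical axis, %) in bins of 0.5 log2 difference (horizontal axis) for the compared members, filled, and for all compared genes, outlined. In conventional iTreg over naive CD4 and over natural Treg most members lie above 1, and in natural Treg over naive CD4 they lie around 0.

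Natural Treg and naive CD4, both sorted without culture, were then compared. Of 28 members compared, 14 were above 0 and 14 below, against 3105 above and 4280 below of all 7582 genes. The median of the members was -0.004 and that of all genes -0.05. In natural Treg 0 were at least 2-fold higher, against 6.03% of all genes, and Acss2 alone was at least 2-fold lower (-1.28), against 2.03%. Next to it were Tm7sf2, with a bound of -0.57, and Lss (-0.55) below, and Ebp (0.64), Stard4 (0.57) and Scd2 (0.51) above. Of 19 cell cycle genes compared, 6 were at least 2-fold higher in natural Treg, with a median of 0.83. How they relate to the members was not tested. Acss2 thus took a graded order, lowest in both iTreg, higher in natural Treg and highest in naive CD4, by its brighter probe.

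Whether vitamin C in the culture altered these genes was asked of the pair of iTreg arrays. No member was 1.5-fold different, of 32 compared, against 2.93% of 7756 genes that were higher by this much and 3.21% that were lower. At 2-fold the counts were likewise 0 higher and 0 lower, against 0.941% and 0.812%. Small differences ran more often upward, with 22 above 0, 9 below and Fasn at 0, against 48.4% of all genes above and 51.1% below, and the median was 0.07 against -0.01. The 10 enzymes from squalene to cholesterol had a median of 0.15, with 7 above 0. Hmgcs1 (-0.03) and Elovl5 (-0.06) were above 0 under at least 1 alternative, at up to 0.04 and 0.06.

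Abcg1, the cholesterol exporter, had the highest difference (0.41), then Srebf1 (0.38), Dhcr7 (0.32), Idi1 (0.32) and Fads1 (0.31). Over the alternatives Abcg1 lay between 0.38 and 0.41 and Srebf1 between 0.23 and 0.38. In a list of LXR, its RXR partner receptors and linked lipid genes that holds no member, 2 of 5 compared were above 0 and 3 below. Their median was -0.04. The 5 were Rxra, Rxrb, Lpcat3, Abca7 and Smpdl3a, and the LXR gene Nr1h3 was not compared. Elovl1 was above 0 with each of its 4 probes (0.24, 0.32, 0.37 and 0.64). Elovl6 was the lowest (-0.39, from -0.39 to -0.32 over the alternatives), followed by Scd2 (-0.19), Acss2 (-0.15) and Hsd17b7 (-0.15). The 5th and 95th percentiles of all genes were -0.47 and 0.44, and each of these gene values lay between them. Of 19 cell cycle genes, 18 were above 0 (median 0.12), and their part in the small upward differences was not tested.

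**Figure D5:**
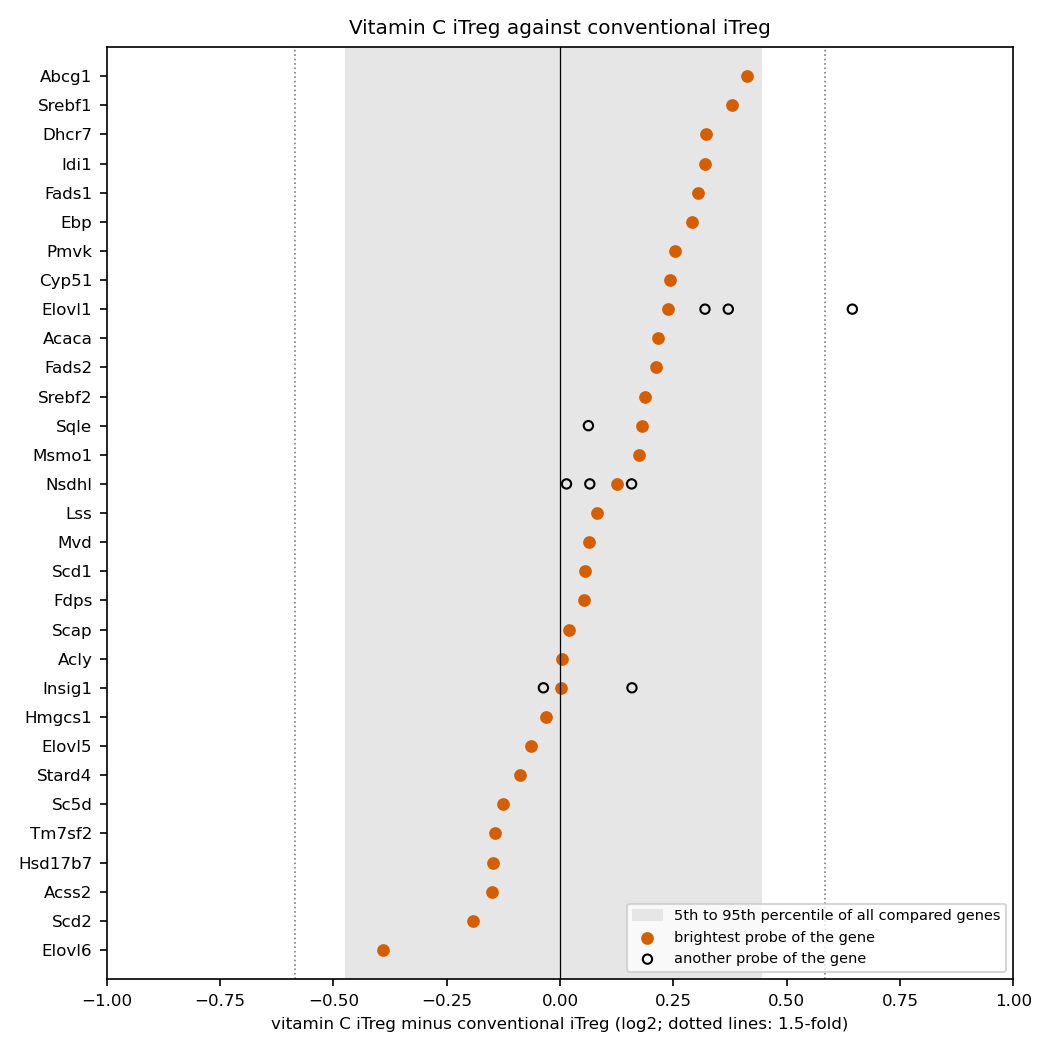
Difference of vitamin C iTreg from conventional iTreg (horizontal axis, log2) for members detected on both arrays, ordered by value; filled points are the brightest probe of a gene, open points its other detected probes, the band spans the 5th to 95th percentile of all compared genes and dotted lines mark 1.5-fold. Every filled point lies inside the band, from Elovl6 (-0.39) to Abcg1 (0.41), and 1 open point, an Elovl1 probe, lies outside it at 0.64.

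Other genes of these pathways, outside the list of members, were mixed in conventional iTreg over naive CD4, where the shares past 2-fold over all compared genes were 13.2% upward and 14.7% downward. Several counts below are near those shares. Of 4 compared genes that assist cholesterol synthesis, Erg28, a scaffold of sterol demethylation, was at least 2-fold higher (1.05), Cyb5r3 stood at 0.84, Cyb5b at 0.27 and Cyb5a at -0.05. Of 8 compared genes of SREBP processing and degradation, 0 were 2-fold higher and 2 were lower: Rnf139 (-1.05) and Rnf145 (-1.07), ubiquitin ligases of sterol-regulated degradation, with Erlin1 at 0.13 and Fbxw7 at 0.55. Sterol uptake, trafficking and storage split, with 3 higher and 4 lower of 11: Tmem97, an SREBP target that binds the cholesterol transporter of lysosomes, was at 3.18 and the lipoprotein receptor gene Vldlr had a bound of 2.28, while the lysosomal lipase gene Lipa was at -2.01 and the cholesterol ester hydrolase gene Nceh1 at -1.54. Among 10 other compared genes of fatty acid synthesis, 4 were higher and 1 lower, led by Mid1ip1, which activates acetyl-CoA carboxylase (2.38), and the citrate carrier gene Slc25a1 (2.08), with Mlx (-1.49) and Hacd4 (-0.56) lowest. Of 6 NADPH supply genes, Pgls (1.14) and Idh1 (1.11) were higher and 0 lower, and Taldo1 stood at -0.43 and Mthfd1 at 0.02. A list of LXR, its RXR partner receptors and linked lipid genes had 0 higher and 0 lower of 7 compared. It ran from Smpdl3a (-0.60) and Abca7 (-0.57) to Rxrb (0.05) and Lpcat3 (0.03), and the LXR gene Nr1h3 was not compared. Isoprenoid branch genes had 0 higher and 1 lower of 10, with Nus1 at 0.90, Dhdds at 0.61, Fntb at -0.83 and Rabggta at -1.06.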

How the data were processed

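RNA of 4 groups, 1 array each, was read after labelling of 550 ng of total RNA with biotin, per the labels' protocols. For 25697 probes the deposited table gives, per the file headers, an intensity on a linear scale beside a detection p-value, with median intensities between 132 and 157. Scanner data went through GenomeStudio 2011.1, per the submitters' processing notes, which name no background setting. The authors' deposited log2 values equalled quantile-normalized log2 intensities within 5e-07.

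The neqc function of limma 3.58.1 (R 4.3.3) corrected the background, inferring the negative controls from detection p-values, added an offset of 16 and gave quantile-normalized log2 values. This offset shrinks the differences of dim genes. Python 3.11.15, numpy 2.4.6, pandas 2.3.3 and matplotlib 3.10.9 did the rest. A table of the platform named 23978 probes, and the probe of highest mean log2 value stood for a gene. A gene that 1 of both arrays did not detect took there the higher of its own value and that array's lowest detected signal, giving a bound, set to 0 where it pointed the other way. No test was run. The steps were run on simulated arrays made from the naive CD4 intensities, with 200 genes changed on one of them. A much larger share of genes differed between the iTreg and ex vivo arrays. The simulation thus does not show how the normalization acts under differences that wide.

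All members, and in 11 lists of other genes the 2 highest and 2 lowest in conventional iTreg over naive CD4 plus any gene 2-fold different with vitamin C, were named. Members and lists were chosen with earlier results of these data known. The 8 alternatives were the authors' deposited values, an offset of 50, median centring, normalizing 2 arrays at a time, a detection limit of 0.05, detection on both arrays, no detection filter, and averaging the probes of a gene. A median counted as the same when it moved by less than the median disagreement between probes, and a count when it stayed within 1.5 times.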

Additional observations from a re-analysis of the deposited data

How the results depend on the processing

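No paired analysis was possible because each group had 1 array, and none could be left out. Of 144 values of medians and counts under the alternatives, 143 kept to the margins given under the processing and none changed direction past 2-fold. The exception was the count of members at least 2-fold lower in vitamin C iTreg than in natural Treg, which was 0 on averaging over probes. The count at least 2-fold higher ranged from 19 to 22 in conventional iTreg and from 19 to 23 in vitamin C iTreg over naive CD4, and from 17 to 22 over natural Treg for each. Of 1470 member differences under an alternative, 1347 stayed within the margins and 123 moved past them. Of the 692 of at least 2-fold, 683 stayed past 2-fold and 0 changed sign. Those that did not concern Idi1, Sc5d, Elovl1 and Acss2. Median centring moved the median of all genes in conventional iTreg over natural Treg from -0.06 to 0.07, and that of the members to 1.87. Idi1, Scd1 and Fads2 were not detected on either ex vivo array, so their folds are bounds.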

Other observations

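Lipid genes beyond synthesis were looked at in lists that hold no member, beside 13.2% of all compared genes higher by 2-fold or more and 14.7% lower in conventional iTreg over naive CD4. Of 21 compared genes of acyl-CoA synthetases and glycerolipid synthesis, 6 were at least 2-fold higher in conventional iTreg than in naive CD4 and 0 lower. Acsl6, which activates long-chain fatty acids, had log2 signals of 11.71 in vitamin C iTreg and 12.29 in conventional iTreg and was not detected on either ex vivo array, a bound of 5.64 over naive CD4. Dgat2, which makes triglycerides, had 9.89, 10.03 and 8.44 in vitamin C iTreg, conventional iTreg and natural Treg and was not detected in naive CD4, so that both Treg kinds stood above it. Chkb (-0.36) and Cept1 (-0.22) were the lowest.

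Of 13 compared fatty acid oxidation genes, 2 were at least 2-fold higher in conventional iTreg than in naive CD4, Acadl (1.49) and Etfb (1.34), and 1 lower, Cpt1b (-1.02), with Hadhb at -0.65, counts not far from the shares of all genes. Of 3 compared oxysterol genes, Gpr183, the receptor of oxysterols that guide lymphocytes, was not detected in vitamin C iTreg and had a log2 signal of 7.78 in conventional iTreg, against 10.94 in natural Treg and 11.57 in naive CD4. Its differences were -3.79 in conventional iTreg over naive CD4 and a bound of -1.59 in vitamin C iTreg over conventional iTreg, the only gene of the 11 lists to reach 2-fold with vitamin C. Ebpl was at -1.52 and Hsd3b7 at -0.25 in conventional iTreg over naive CD4.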
